A study of Mus musculus with 14 samples.

Results

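The nuclear-encoded subunits of the mitochondrial respiratory chain were followed in mouse hearts as 78 of the 51912 genes counted. Members were protein-coding genes whose symbol began with Ndufa, Ndufb, Ndufc, Ndufs, Ndufv, Uqcr, Cox4, Cox5, Cox6, Cox7, Cox8 or Atp5, without the Ndufaf assembly factors, and whose mean count was at least 50 over 14 libraries. They comprised 38 genes of complex I, 8 of complex III, 15 of complex IV and 17 of ATP synthase (complex V). Ndufa4 was placed with complex I by its symbol, although its protein is now assigned to complex IV. In all, 81 protein-coding genes met the symbol rule. The 3 below the minimum were Cox6b2, with a mean count of 24.8, Cox7b2, with 3.36, and Cox8c, which was listed at 0 in every library. The lowest members above it were Cox4i2, Ndufb2 and Ndufa4l2, with mean counts of 163, 217 and 297. A further 12 genes with such symbols were annotated as pseudogenes or non-coding RNA and were left out.

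Complex I passes electrons from NADH to ubiquinone, complex III passes them on to cytochrome c, and complex IV hands them to oxygen. The proton gradient built along the way drives ATP synthase, which supplies most of the ATP of the beating heart. A small set of core proteins is encoded by mitochondrial DNA, and all other subunits are nuclear genes whose products are imported. Several complex IV subunits exist as a heart and muscle isoform beside a more general isoform.

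Hearts came from mice on the C57BL/6J background. The groups were Clk3 knockout after TAC (KO TAC, 4 libraries), Clk3 knockout after sham surgery (KO sham, 4), wild type after TAC (WT TAC, 2) and wild type after sham surgery (WT sham, 4). TAC is taken as transverse aortic constriction, which narrows the aorta and loads the left ventricle. All TAC hearts were 10 weeks old, and each sham group held 2 hearts of 10 weeks and 2 of 11 weeks. The labels give neither the kind of knockout allele, nor the time after surgery, nor the sex. Whether every library is a separate animal is not stated, and the p-values therefore cover the spread among libraries only, part of which may be technical.

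Clk3, a kinase of splicing factors, was at 50.7 to 67.4 CPM (the usual unit of counts set against library size, here with TMM factors) in the 8 KO libraries and at 73.2 to 96.0 CPM in WT sham. Of the WT TAC libraries, the library labelled WT TAC 1 had 54.2 CPM, inside the KO range, and WT TAC 2 had 92.3 CPM. The pseudogene Gm8730 was at 57.4 to 67.1 CPM in the KO libraries and at 66.8 CPM in the library labelled WT TAC 1, against 1.26 to 1.63 CPM in the other WT libraries. That library goes against its label. Medians over the members and most named changes that use it are also given without it. Shares of all genes called, interval counts, ranges over subunit groups and summed levels are given only with it. After TAC, the load marker Nppa was at 639 to 1119 CPM in KO TAC against 118 to 235 in KO sham, and at 1912 and 1808 in WT TAC against 104 to 217 in WT sham. Gene counts ranged from 11385818 to 20369637 per library. The 12 cardiomyocyte markers summed to 37214 to 48581 CPM with none at 0, and the 7 skeletal muscle markers, 1 of which was at 0 in all libraries, to 2.15 to 4.29 CPM. In such bulk tissue, fewer cells of a type and less RNA per cell cannot be told apart.

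Members took 3.37% to 4.18% of the gene counts of a library. Their counts were uneven, as Atp5b and Atp5a1, the beta and alpha subunits of the F1 catalytic head, made up 17.7% of all member counts, and the 10 most counted members 39.6%. Levels of different genes were compared per kb, and their order depended on the length used. Per kb of exon, Atp5a1 stood highest at 1006 CPM per kb, followed by Cox6a2 at 821, Atp5b at 769 and Cox8b at 734 CPM per kb. The highest member of complex I was Ndufb9, an accessory subunit, with 539 CPM per kb. Among the nuclear core subunits of complex I, Ndufs1 had 124 CPM per kb. In complex III, Uqcrfs1, the Rieske iron-sulfur protein, was highest at 608 CPM per kb and Uqcrq lowest at 215 CPM per kb. Per kb of coding length the highest members were instead Ndufa4 (2428), Cox6c (2323) and Atp5g3 (2286), with Atp5a1 at 1630 CPM per kb, and Ndufa4 in place of Ndufb9 (1035) led complex I. In complex III, on coding length, Uqcr11 was highest (1811) and Uqcrc1 lowest (716), with Uqcrq at 1477 and Uqcrfs1 at 896 CPM per kb. On exon length the lowest members were Ndufb2 at 2.56, Cox4i2 at 13.6, Atp5l at 14.6 and Atp5s at 16.8 CPM per kb. For Ndufb2 the value is a floor, since 92.7% of the reads on it were set aside as ambiguous between genes. It overlaps Gm42420 on the same strand. Ndufb8, which overlaps Gm20538, lost 58.3% of its reads in the same way.

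In paralogous families the heart and muscle isoform, where there is one, was the higher one. Cox6a2, the heart and muscle isoform, had 821 ± 99.5 CPM per kb of exon and Cox6a1, its general counterpart, 99.4 ± 7.97 (SD, n = 14 for all values of this paragraph), a mean ratio of 8.23. Cox8b stood at 734 ± 84.9 and Cox8a at 182 ± 16.1 CPM per kb, a ratio of 4.02. Cox4i1 stood at 648 ± 52.8 CPM per kb and Cox4i2, an isoform best known from lung and low oxygen, at 13.6 ± 1.74, a ratio of 47.9. Ndufa4 stood at 440 ± 58.9 CPM per kb and Ndufa4l2, its hypoxia-inducible relative, at 17.7 ± 3.31. Cox6b1 stood at 635 ± 47.8 CPM per kb and Cox6b2, the testis isoform, at 1.48 ± 0.762. Of the genes for subunit c of the ATP synthase ring, Atp5g3 stood at 452 ± 36.8, Atp5g1 at 131 ± 13.5 and Atp5g2 at 38.3 ± 2.79 CPM per kb. The order of Cox7a1, the heart isoform, and Cox7a2 depended on the length used. Cox7a1 stood at 622 ± 73.1 and Cox7a2 at 316 ± 38.3 CPM per kb of exon, but at 1180 ± 139 and 1178 ± 142 CPM of coding counts per kb of coding length. Cox7a2l, which acts in joining complexes III and IV, was lower on both scales.

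**Figure D1:**
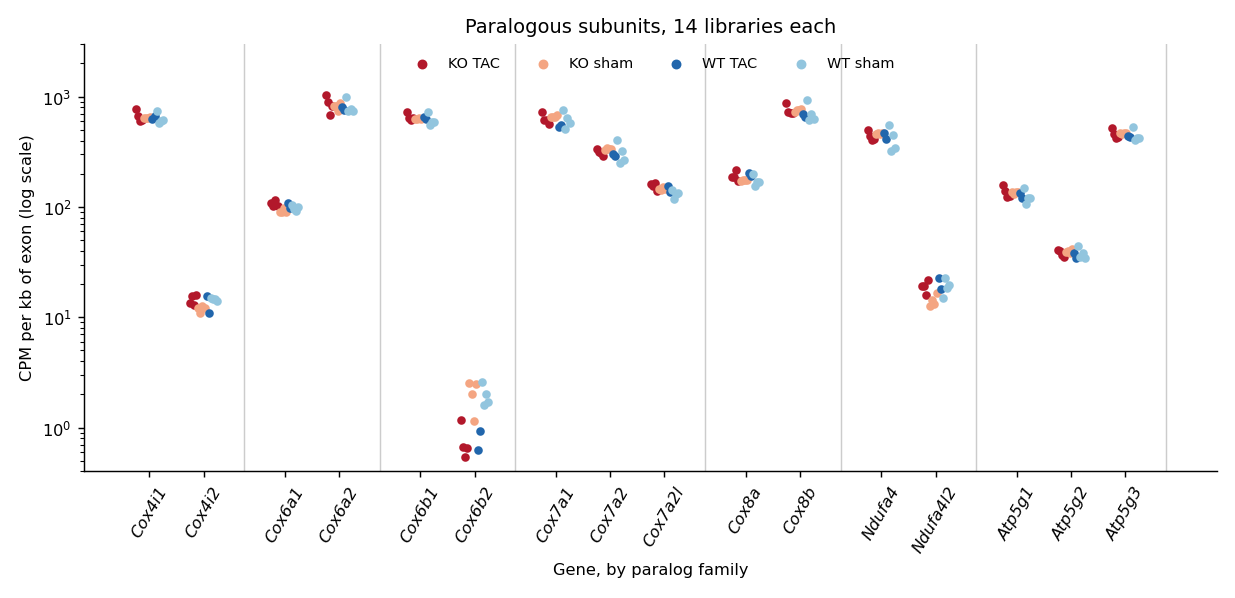
Level of paralogous subunits as CPM per kb of exon, on a log axis, with 1 point for each of 14 libraries coloured by group. Within each family the order of the genes was the same in all 14 libraries, and Cox6b2 was the gene with the lowest level.

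Promoter sequence was matched by symbol for 62 of the 78 members in the RefSeq table of GRCm38.p6, which holds 250 bases before and 50 after each start. Letters of 4 motifs known from respiratory genes were searched on both strands. GCGCATGCG, of the nuclear respiratory factor NRF1, was in 8 of the 62 promoters (12.9%), against 1.95% of the promoters of 27025 genes. AAGATGGCG, of YY1, was in 7 (11.3%), against 1.64%. CCGGAAGT, of ETS factors and GABP, was in 5 (8.06%), against 4.31%. TCAAGGTCA, of the estrogen-related receptors, was in Atp5g3 alone (1.61%), against 0.466%. Such a match is a description of letters and shows no binding.

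The upstream sequences below, 5′ to 3′ in the direction of the gene and ending at the base before the start, show Cox6a1, the member called higher after TAC in knockout hearts, beside others with a motif in capitals. Atp5k and Ndufa11 are shown for the same NRF1 letters, of which both strands overlap in each of these promoters, and Atp5g3 for the only estrogen-related receptor match. Cox7a1 and Cox8b are the heart isoforms with a promoter in the table, and neither holds a match to the letters searched. Cox6a1 is from chr5:115348959-115349138 (minus strand), Atp5k from chr5:108434400-108434499 (minus), Ndufa11 from chr17:56717662-56717761 (plus), Atp5g3 from chr2:73911327-73911426 (minus), Cox7a1 from chr7:30184071-30184170 (plus) and Cox8b from chr7:140900447-140900546 (minus).
Cox6a1: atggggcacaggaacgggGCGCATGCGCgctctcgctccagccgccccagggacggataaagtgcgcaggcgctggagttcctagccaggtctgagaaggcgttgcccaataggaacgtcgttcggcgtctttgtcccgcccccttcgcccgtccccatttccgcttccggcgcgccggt
Atp5k: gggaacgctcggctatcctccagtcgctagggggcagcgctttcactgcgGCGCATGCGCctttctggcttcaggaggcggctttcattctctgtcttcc
Ndufa11: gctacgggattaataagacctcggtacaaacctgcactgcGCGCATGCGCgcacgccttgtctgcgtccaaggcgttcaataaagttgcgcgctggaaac
Atp5g3: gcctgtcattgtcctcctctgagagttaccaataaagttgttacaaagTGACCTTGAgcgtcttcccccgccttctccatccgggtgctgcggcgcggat
Cox7a1: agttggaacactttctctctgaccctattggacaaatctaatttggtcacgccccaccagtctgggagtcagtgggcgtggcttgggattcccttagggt
Cox8b: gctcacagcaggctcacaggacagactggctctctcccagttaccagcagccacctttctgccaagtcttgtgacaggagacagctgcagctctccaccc

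Across the 14 libraries the members moved as a block. After each gene was centred on its own mean log2 CPM, 1 axis held 72.2% of the variance, and 76 of 78 members loaded on it with the same sign. The 2 exceptions were Ndufa4l2 and Cox4i2, and Cox6a1 lay near 0. The axis followed single libraries more than groups. WT sham 1 lay 0.23 (log2) above the members' mean, with 77 of 78 genes above their own mean, while WT sham 2 lay 0.19 below with 76 genes below and WT sham 4 0.13 below. KO TAC 1 lay 0.15 above with 74 genes above. The SD of the members' mean log2 CPM was 0.09 in KO TAC, 0.02 in KO sham, 0.04 in WT TAC (n = 2) and 0.19 in WT sham. The most variable member over all libraries was Ndufa4l2 (SD 0.28 on the log2 scale) and the least variable Ndufa10 (0.06).

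WT sham 1 and KO TAC 1 were the libraries of lowest depth in their groups, with 12836936 and 11385818 gene counts, and WT sham 1 had the largest share of gene counts in untranslated parts of the 14 (36.2%, against 32.8% to 34.4% in the others). The 39 members of shorter coding length deviated by 0.27 in WT sham 1 and −0.23 in WT sham 2, and the 39 longer ones by 0.20 and −0.14. Mitochondrially encoded transcripts, summed over 13 genes, stood at 45487, 29693, 36628 and 31584 CPM in WT sham 1 to 4. This was the same order as the members (41854, 32116, 35466 and 33577 CPM). In KO sham 1 to 4 (43583, 45163, 43291 and 42406 CPM) the order differed from that of the members (37304, 37399, 37662 and 37591 CPM). In KO TAC it differed for libraries 3 and 4 (32827 and 36960 CPM, members 34868 and 34407), and in WT TAC it was the same. Of the 13 genes, mt-Nd3, mt-Nd4l, mt-Co2, mt-Co3, mt-Atp6 and mt-Atp8 averaged at most 6.47 CPM in any group and add almost nothing to the sum. The part of depth, fragment coverage and mitochondrial transcript level in the members' values was not tested.

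**Figure D2:**
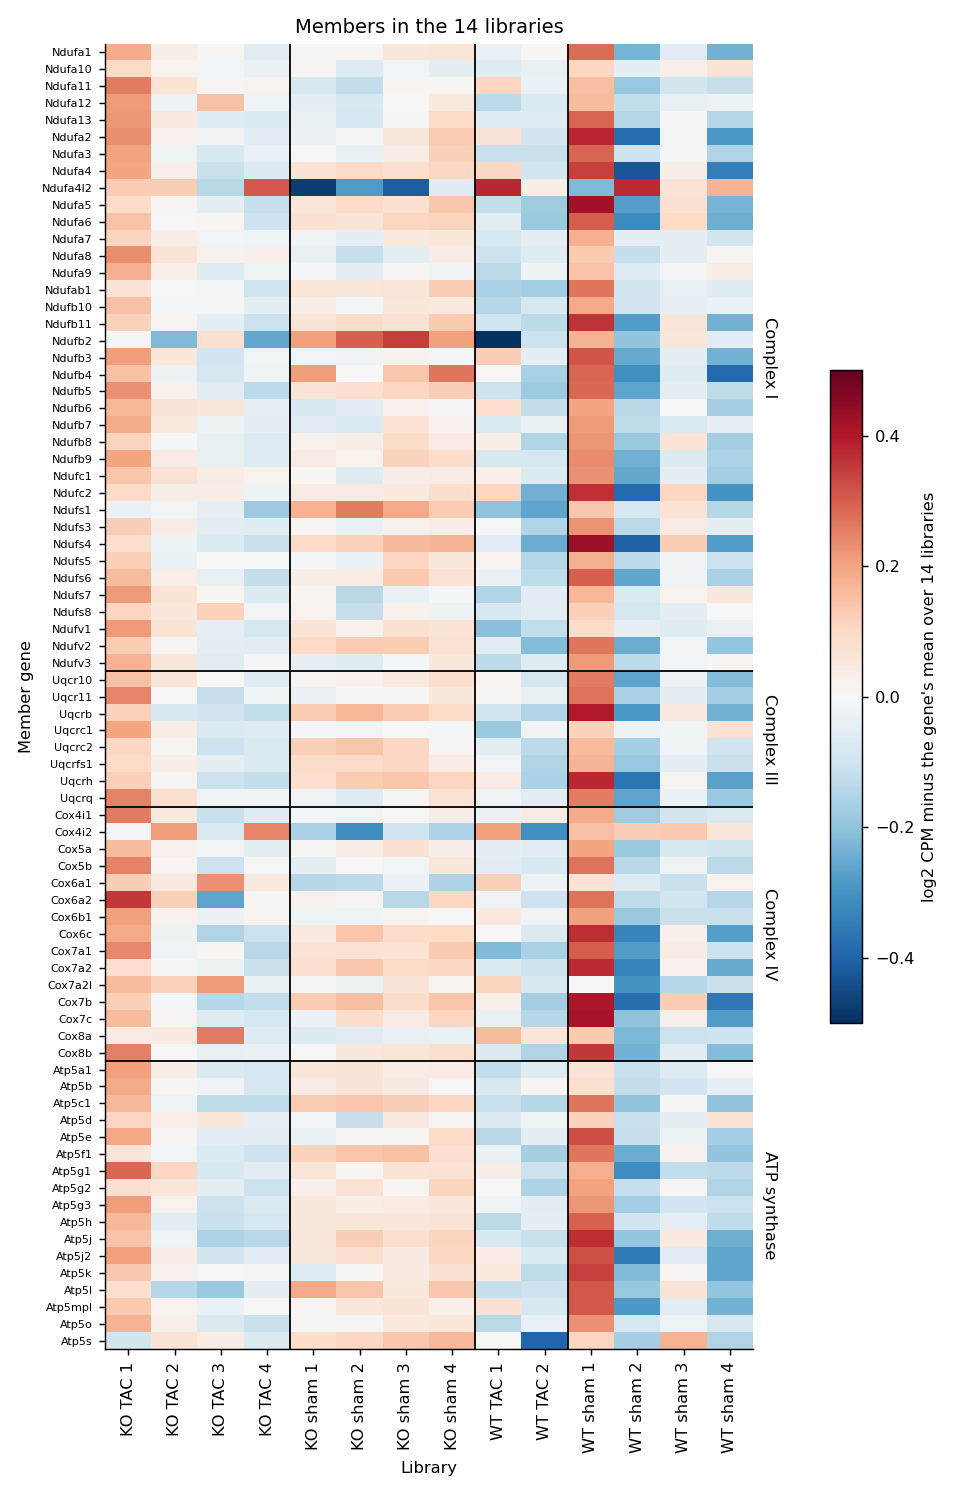
Log2 CPM of the members (rows, by complex, with 1 member of complex I not shown) in each of 14 libraries (columns, by group) minus the gene's mean over all libraries, with colours ending at −0.5 and 0.5. Whole columns share a colour, red in KO TAC 1 and WT sham 1 and blue in WT sham 2 and 4, while rows such as Ndufa4l2, Ndufb2 and Ndufs1 differ from their column.

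Summed over all members, the counts averaged 536678 ± 82658 in KO TAC and 519883 ± 24001 in KO sham, and 455770 ± 6896 in WT TAC and 623514 ± 64014 in WT sham (SD, n = 4, but 2 in WT TAC), before any scaling for depth. As TMM-scaled levels the sums were 36675 ± 2871 CPM in KO TAC and 37489 ± 166 in KO sham, and 34365 ± 335 in WT TAC and 35753 ± 4292 in WT sham. Complex I summed to 12561 ± 838 CPM in KO TAC and 12783 ± 175 in KO sham, and to 11566 ± 219 in WT TAC and 12303 ± 1492 in WT sham. Complex III summed to 4793 ± 359 CPM in KO TAC and 4963 ± 45.6 in KO sham, and to 4519 ± 92.1 in WT TAC and 4721 ± 579 in WT sham. These differences between groups were smaller than the range of WT sham, which enclosed every WT TAC library for both complexes.

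Complex IV summed to 5737 ± 524 CPM in KO TAC and 5755 ± 82.5 in KO sham, and to 5441 ± 120 in WT TAC and 5511 ± 867 in WT sham. ATP synthase summed to 13584 ± 1161 CPM in KO TAC and 13988 ± 59.2 in KO sham, and to 12840 ± 96.0 in WT TAC and 13218 ± 1364 in WT sham. KO TAC 1 was the highest library of its group for every complex, with 15226 CPM for ATP synthase against 12682 to 13572 CPM in KO TAC 2 to 4.

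**Figure D3:**
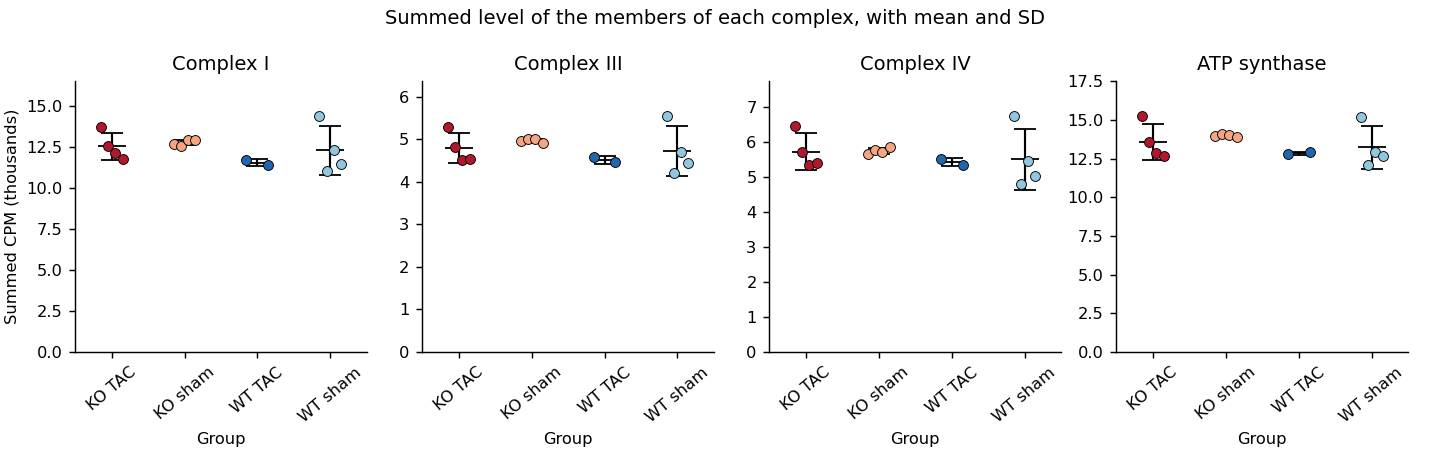
Summed CPM (in units of 1000) of the members of each complex in each library, with the mean and SD of the group. The KO sham libraries lie close together for every complex, whereas WT sham spans the levels of all other groups, apart from KO TAC 1 for ATP synthase.

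After TAC in knockout hearts, 3 of the 78 members passed the threshold of the edgeR test across 15651 genes (adjusted p under 0.05). Cox6a1, the general isoform of complex IV subunit 6a, rose, while Ndufs1, the large iron-sulfur subunit of the NADH-oxidising arm of complex I, and Ndufb2, an accessory subunit of its membrane arm, fell. Thus 1 member was called higher, where 6.73% of all genes were, and 2 lower, where 6.26% were. At an unadjusted p under 0.05 there were 5 members (6.41%), against 28.9% of all genes. The members' median log2 change was −0.01, with 35 above 0 and 43 below, and the median of all genes was −0.01. For 75 of the 78, the 95% interval lay within 0.5 of 0 on the log2 scale.

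Ndufs1 (ENSMUSG00000025968.16, GRCm38 chr1:63143596-63176833, minus strand) had 980, 990, 971 and 881 CPM in KO TAC 1 to 4, against 1129, 1198, 1142 and 1092 CPM in KO sham 1 to 4. All 4 KO TAC libraries lay below all KO sham libraries. The fitted log2 change was −0.25 ± 0.07 (SE), with an edgeR adjusted p of 0.0279. Relative to the mean of the other complex I members in the same library, the log2 level of Ndufs1 was 1.99 ± 0.08 in KO TAC and 2.25 ± 0.09 in KO sham (SD, n = 4 each), again without overlap. The call was lost without KO sham 1, 2 or 3 or KO TAC 4 (adjusted p at most 0.0951).

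Cox6a1 (ENSMUSG00000041697.8, GRCm38 chr5:115345642-115348981, minus strand), whose promoter is printed above, had 75.9, 72.0, 81.5 and 72.0 CPM in KO TAC 1 to 4, against 63.0, 63.6, 68.1 and 62.6 CPM in KO sham 1 to 4. The groups did not overlap. The log2 change was 0.23 ± 0.07 (SE), with an edgeR adjusted p of 0.0357. The call was lost without any of KO TAC 1, 2, 3 or 4 or of KO sham 1, 2 or 4 (adjusted p at most 0.0962).

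Ndufb2 (ENSMUSG00000002416.13, GRCm38 chr6:39592574-39603382, plus strand) had 14.1, 12.2, 15.0 and 11.9 CPM in KO TAC 1 to 4, against 16.4, 17.5, 18.0 and 16.4 CPM in KO sham 1 to 4, again without overlap. The log2 change was −0.36 ± 0.11 (SE), with an edgeR adjusted p of 0.0477. These values rest on the small part of its reads that were not ambiguous. With ambiguous counts added for every gene, Ndufb2 stood at 201 ± 16.4 CPM in KO TAC and 205 ± 6.24 CPM in KO sham, and its log2 change was −0.03 with an adjusted p of 0.896. The call was also lost without any of KO sham 1 to 4, of KO TAC 1, 2 and 4 or of WT sham 3 and 4, with an adjusted p of at most 0.126.

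Of the members that did not pass, those of smallest p were Ndufa4l2, with a log2 change of 0.41 ± 0.14 (SE, edgeR adjusted p 0.0596), Cox4i2, with 0.28 ± 0.12 (adjusted p 0.127), and Atp5l, a membrane subunit of ATP synthase, with −0.20 ± 0.10 (adjusted p 0.192). Ndufa4l2 had 17.3 to 23.6 CPM in KO TAC, against 13.8 to 18.3 CPM in KO sham, so the groups overlapped. It passed with DESeq2 (adjusted p 0.0378), and also in edgeR fits without WT sham 1, KO sham 4 or KO TAC 3. Cox4i2 had 10.1 to 12.6 CPM in KO TAC and 8.6 to 9.9 CPM in KO sham, without overlap. The log2 changes of the 5 F1 subunits lay between −0.15 (Atp5c1) and 0.05 (Atp5d), those of the 4 peripheral stalk subunits between −0.15 (Atp5f1) and −0.02 (Atp5o), and those of the 3 subunit c genes between −0.06 and 0.02.

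**Figure D4:**
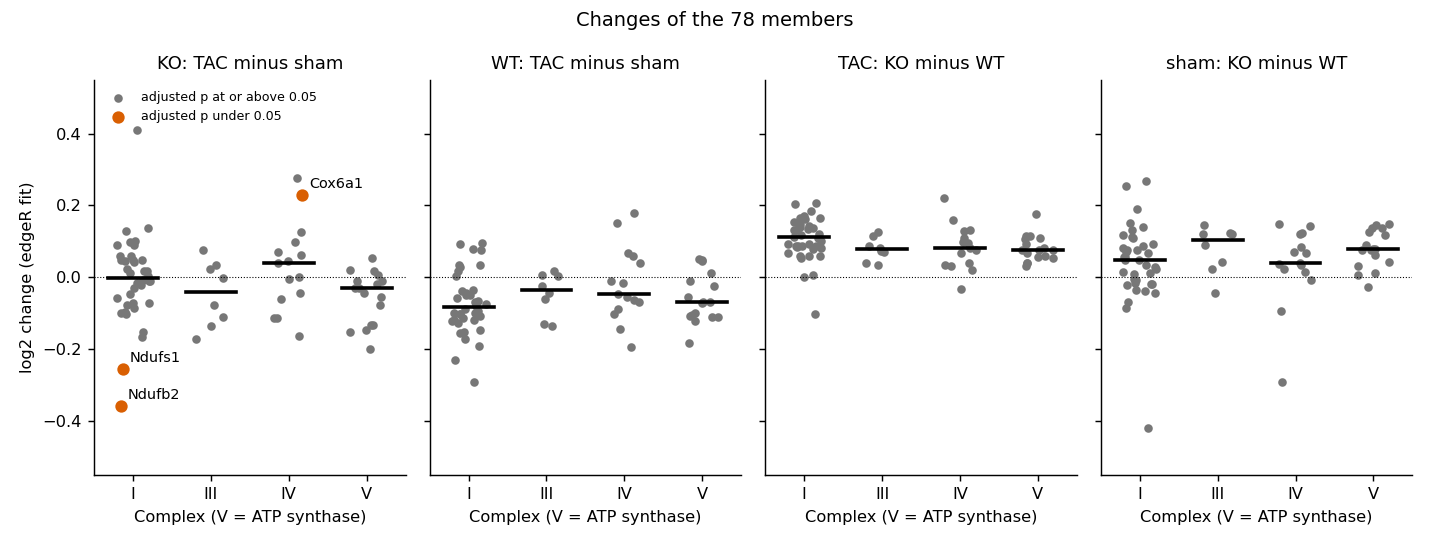
Fitted log2 change of each member by complex (V is ATP synthase) in 4 comparisons, with black bars for the median of the complex. The 3 named points in orange passed an adjusted p of 0.05, all for TAC minus sham in KO, and nearly all points for KO minus WT after TAC lie above 0.

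After TAC in wild-type hearts, edgeR called 0 members higher, where 6.91% of all genes were called, and 0 lower, where 5.3% were. DESeq2 and limma-voom also called 0, and 1 member, Ndufs1, had an unadjusted p under 0.05 in edgeR (1.28%, against 26.1% of all genes). With total-count scaling, the calls over all genes were 821 higher and 993 lower, against 1082 and 830 with TMM. The median log2 change of the members was −0.07, with 57 of 78 below 0. For all genes it was −0.0023, with 50.3% below 0. All 7 core subunits of complex I had values below 0, from −0.23 (Ndufs1) to −0.07 (Ndufs8), as did the 3 core and Rieske subunits of complex III. For 76 members the 95% interval lay within 0.5 of 0.

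The sign of this median depended on a single library. Without WT sham 1 it was 0.03, with 52 members above 0, and without the library labelled WT TAC 1 it was −0.08, with 71 below. With the 10-week libraries alone it was −0.0001, with 39 above 0. Ndufs1 had 870 and 833 CPM in WT TAC, against 1100, 945, 1048 and 905 CPM in WT sham, so that both WT TAC libraries lay below all WT sham libraries. Its log2 change was −0.23 ± 0.09 (SE), with an edgeR adjusted p of 0.0953, and it passed without WT sham 4 (0.0423) and with total-count scaling (0.0276). The next members by p were Ndufab1, the mitochondrial acyl carrier protein, with a log2 change of −0.19 ± 0.09 (edgeR adjusted p 0.201), and Ndufb2, with −0.29 ± 0.14 (0.206). Without the library labelled WT TAC 1 the changes were −0.26 for Ndufs1 (adjusted p 0.259), −0.20 for Ndufab1 (0.460) and −0.10 for Ndufb2 (0.831), and without WT TAC 2 that of Ndufb2 was −0.51 (0.0640).

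**Figure D5:**
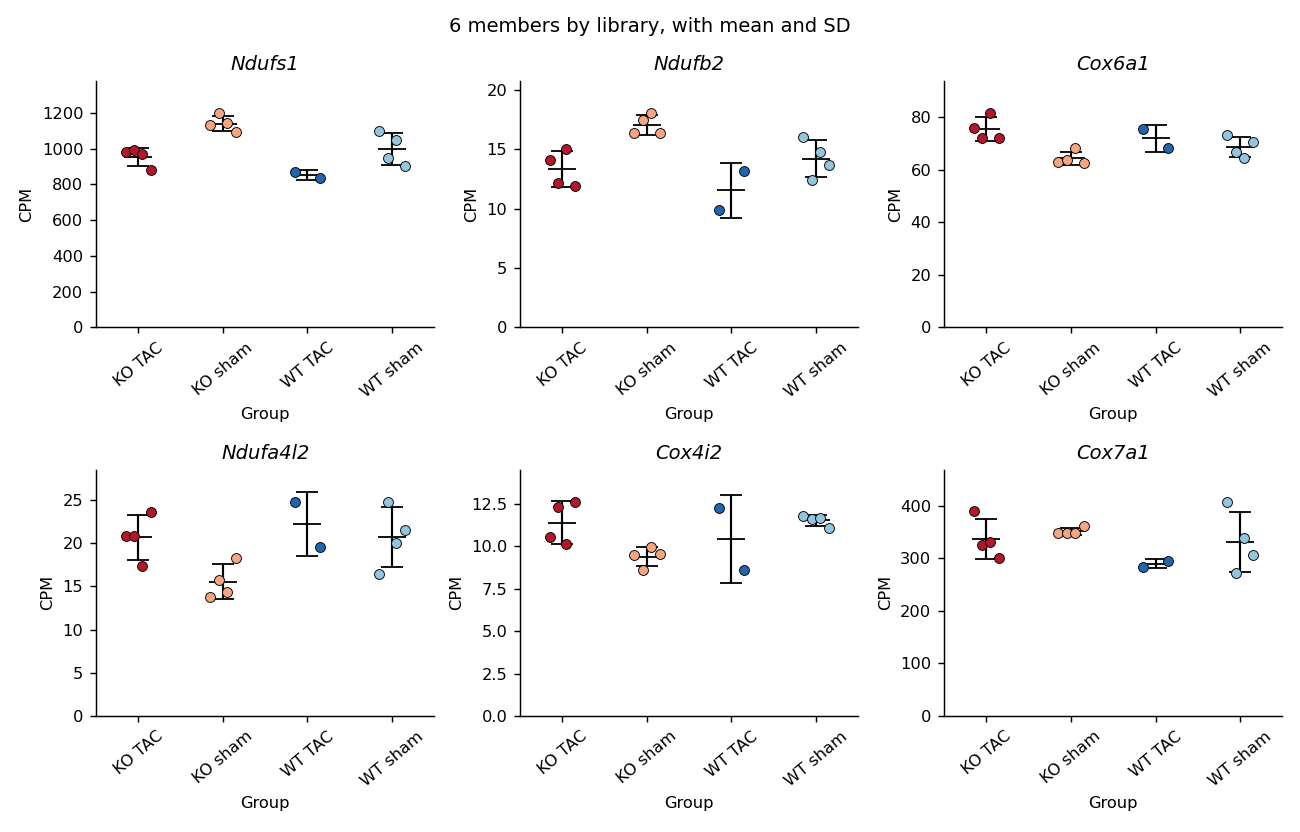
CPM of 6 members in each library, with the mean and SD of the group. The KO TAC points of Ndufs1 and Ndufb2 lie below, and those of Cox6a1 above, all KO sham points, as do those of Cox4i2, while Ndufa4l2 and Cox7a1 overlap between KO TAC and KO sham.

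The heart and muscle isoforms of complex IV did not pass in any of the 5 comparisons (lowest edgeR adjusted p 0.363). Cox6a2 averaged 583 ± 102 CPM in KO TAC and 555 ± 38.1 in KO sham, and 533 ± 22.1 in WT TAC and 550 ± 80.1 in WT sham (SD, n = 4, but 2 in WT TAC), with fitted log2 changes of 0.07 ± 0.12 in KO and −0.05 ± 0.14 in WT (SE). Cox7a1 averaged 337 ± 38.4 CPM in KO TAC and 352 ± 7.06 in KO sham, and 289.5 ± 8.52 in WT TAC and 332 ± 57.7 in WT sham, with changes of −0.06 ± 0.10 in KO and −0.19 ± 0.13 in WT. Cox8b averaged 272 ± 27.5 CPM in KO TAC and 272 ± 6.36 in KO sham, and 244 ± 9.69 in WT TAC and 259 ± 52.4 in WT sham, with changes of 0.00 ± 0.11 in KO and −0.09 ± 0.13 in WT. For each of these genes the groups of a genotype overlapped. The WT changes without the library labelled WT TAC 1 were −0.09 for Cox6a2, −0.16 for Cox7a1 and −0.13 for Cox8b.

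Of the genes below the count minimum, Cox6b2, the testis isoform of subunit 6b, fell in both genotypes. Its counts were 14, 11, 11 and 11 in KO TAC, against 41, 29, 18 and 38 in KO sham, and 9 and 14 in WT TAC, against 37, 38, 41 and 35 in WT sham. In CPM it stood at 0.840 ± 0.309 in KO TAC and 2.27 ± 0.723 in KO sham (SD, n = 4 each), and at 0.864 ± 0.245 in WT TAC and 2.20 ± 0.501 in WT sham. KO TAC 1 (1.29 CPM) lay just above KO sham 3 (1.27 CPM), and the WT groups did not overlap. The log2 change was −1.48 ± 0.31 in KO (SE, edgeR adjusted p 0.00728) and −1.32 ± 0.39 in WT (0.0369). Without the library labelled WT TAC 1, the WT change was −1.06. The WT call was lost with limma-voom (adjusted p 0.062) and in edgeR with only the groups compared (adjusted p 0.0536). It was also lost in edgeR without WT sham 1 (adjusted p 0.0664) or WT sham 3 (0.0643). The KO call held in 25 of 26 alternatives. With the 10-week libraries alone neither passed (edgeR adjusted p 0.147 in KO and 0.138 in WT). In that fit 10 genes were called higher and 5 lower in KO, and 508 and 430 in WT. Cox6b1, the form that makes up nearly all of this subunit's counts, was at 635 CPM per kb over all libraries and did not pass in either genotype.

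Between genotypes in sham hearts, edgeR called 0 members higher, where 0.575% of all genes were, and 0 lower, where 0.313% were. DESeq2 and limma-voom also called 0 members, and 4 members had an unadjusted p under 0.05 in edgeR (5.13%, against 18% of all genes). The all-gene calls were 33 higher and 74 lower with total-count scaling, against 90 and 49 with TMM. The members' median log2 difference was 0.07, with 61 of 78 above 0, and 74 intervals lay within 0.5 of 0. With total-count scaling the members' median was 0.01, with 41 above 0, but the median of all genes also moved, to −0.06 from −0.0045 with TMM. Without WT sham 1 the members' median was 0.16, with 71 above 0, and Ndufb4 was called higher and Ndufa4l2 lower. In that fit 302 of all 15602 genes were called higher and 229 lower. Without WT sham 2 the members' median was 0.00, with 39 above 0. With the 10-week libraries alone it was 0.14, with 71 above 0.

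The members of smallest p in this comparison were Ndufa4l2, Ndufs1 and Cox4i2. Ndufa4l2 had 13.8, 15.7, 14.4 and 18.3 CPM in KO sham, against 16.4, 24.8, 20.03 and 21.6 CPM in WT sham, a log2 difference of −0.42 ± 0.14 (SE, edgeR adjusted p 0.129). Cox4i2 had 9.5, 8.6, 9.9 and 9.6 CPM in KO sham, against 11.8, 11.6, 11.7 and 11.1 CPM in WT sham, without overlap, a difference of −0.29 ± 0.12 (0.199). Ndufs1 ran the other way, at 0.19 ± 0.07 (0.170).

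After TAC, 76 of 78 members were higher in KO than in WT hearts by their fitted values, with a median of 0.09, but none passed. The median of all genes was 0.0015, with 49.6% below 0. EdgeR called 0 higher, where 0.377% of all genes were, and 0 lower, where 1.11% were. DESeq2 and limma-voom called 0 as well, and 1 member, Ndufv1, had an unadjusted p under 0.05 in edgeR (1.28%, against 14.8% of all genes). Values ran from −0.10 (Ndufa4l2) to 0.22 (Cox7a1), and 77 intervals lay within 0.5 of 0. All 17 ATP synthase members and all 8 of complex III were above 0. Since the members moved as a block between libraries, these signs are not 78 separate observations. Without the library labelled WT TAC 1 the median was 0.12, with 78 above 0. Without KO TAC 1 it was 0.04, with 61 above 0.

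Ndufv1, which binds NADH and carries the flavin of complex I, had 966, 875, 810 and 785 CPM in KO TAC, against 722 and 767 CPM in WT TAC, so the KO TAC libraries all lay above both WT TAC libraries. Its log2 difference was 0.21 ± 0.08 (SE, edgeR adjusted p 0.264). It was followed by Ndufa12, with 0.18 ± 0.09 (0.354), and Ndufa8, with 0.17 ± 0.08 (0.356), both accessory subunits of complex I. The differences without the library labelled WT TAC 1 were 0.16 for Ndufv1 (adjusted p 0.565), 0.15 for Ndufa12 (0.627) and 0.15 for Ndufa8 (0.609). Comparisons that share a group, such as these and the TAC effects, are not independent of each other.

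The TAC effects of the 2 genotypes were compared by the interaction term. EdgeR called 0 members higher, where 0% of all genes were, and 0 lower, where 0.0192% were. DESeq2 and limma-voom called 0, and 2 members had an unadjusted p under 0.05 in edgeR (2.56%, against 6.53% of all genes). The members' median was 0.03, against −0.0042 for all genes, and 70 intervals lay within 0.5 of 0. The fitted TAC change was below 0 in both genotypes for 37 members, above 0 in both for 15 and of opposite sign for 26. Of the 26, the smallest interaction p belonged to Cox4i2, with 0.42 ± 0.18 (SE, edgeR adjusted p 0.720), Ndufs7, a core iron-sulfur subunit of complex I, with 0.25 ± 0.11 (0.744), and Ndufa8, with 0.21 ± 0.11 (0.794). Without the library labelled WT TAC 1 the values were 0.70 for Cox4i2 (adjusted p 0.686), 0.20 for Ndufs7 (0.907) and 0.19 for Ndufa8 (0.912), and without WT TAC 2 that of Cox4i2 was 0.18 (0.731). The median was 0.08 without WT TAC 1, with 58 above 0, against 49 with all libraries. Without WT sham 1 it was −0.07 and without WT sham 2 it was 0.09. With the 10-week libraries alone it was −0.05, with 22 above 0.

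Of the 63 other genes of the pathway tested, 46 of them assembly factors, 5 were called after TAC in KO (7.94%, against 13% of all genes) and 6 in WT (9.52%, against 12.2%). Of the 6 complex III assembly factors, Uqcc3 rose and Ttc19 fell after TAC in both genotypes. Uqcc3 stood at 50.6 ± 1.92 CPM in KO TAC and 37.7 ± 2.81 in KO sham, and at 51.4 ± 1.60 in WT TAC and 40.9 ± 1.23 in WT sham, with log2 changes of 0.42 in KO (edgeR adjusted p 0.00197) and 0.33 in WT (0.0130). Ttc19 changed by −0.22 in KO (edgeR adjusted p 0.0312) and −0.29 in WT (0.0248). Of 21 complex IV assembly factors tested, Cox19, which helps deliver copper, rose in both genotypes, to 85.7 ± 7.89 CPM in KO TAC against 67.0 ± 2.05 in KO sham, and to 97.3 ± 12.9 in WT TAC against 63.9 ± 5.84 in WT sham. Its log2 changes were 0.35 in KO (edgeR adjusted p 0.0158) and 0.61 in WT (0.00117). Without the library labelled WT TAC 1, the WT changes were 0.30 for Uqcc3 (adjusted p 0.148), −0.34 for Ttc19 (0.0900) and 0.47 for Cox19 (0.0505). In KO, Uqcc3 passed in 25 of 26 alternatives, Cox19 in 24, Ttc19 in 15 and Coa3 in 12. Coa3 rose in KO (0.23, edgeR adjusted p 0.0453), with 0.17 in WT (0.241) and an interaction term that did not pass (0.954). Its WT change was 0.02 without the library labelled WT TAC 1 and 0.30 without WT TAC 2. Cox17, the copper chaperone, was called lower in KO (−0.64, edgeR adjusted p 0.0316), but 91.99% of its reads were ambiguous, and with these added the change was −0.10 (0.441).

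In wild-type hearts the threshold was also passed by Sdha, the flavoprotein of complex II, with −0.31 (edgeR adjusted p 0.0175), by Ndufaf4, a complex I assembly factor, with −0.31 (0.0162), and by Lrpprc, which stabilises mitochondrial transcripts, with −0.35 (0.0275). Without the library labelled WT TAC 1 these stood at −0.24 (adjusted p 0.240), −0.32 (0.125) and −0.22 (0.370). In KO the changes were −0.19 for Sdha (adjusted p 0.0595), −0.19 for Ndufaf4 (0.0579) and −0.16 for Lrpprc (0.190), and no interaction term passed (lowest adjusted p 0.844). Ndufaf4 was also higher in KO TAC than in WT TAC, by 0.36 (edgeR adjusted p 0.0333, and 0.180 without that library). With all libraries, no gene passed in any comparison among cytochromes c1 and c, the 4 ATP synthase assembly factors or the 11 mitochondrially encoded genes tested. The ATP synthase assembly factors had a median log2 change of −0.08 after TAC in KO and −0.14 in WT, which was −0.22 without the library labelled WT TAC 1. The mitochondrially encoded genes had a median log2 change of −0.15 after TAC in KO and 0.12 in WT, which was 0.05 without the library labelled WT TAC 1. Among them mt-Nd3, mt-Co2, mt-Co3 and mt-Atp6 averaged at most 6.47 CPM in any group, against at least 9289 CPM for mt-Co1. The medians therefore do not give the level of the mitochondrial transcripts as a whole.

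Markers of other cell types of the heart also changed with TAC. Of 10 fibroblast markers, 5 rose in KO (Col1a1, Col1a2, Col3a1, Postn and Mfap5), where 6.73% of all genes were called higher. In WT 6 rose, the same 5 and Lum, where 6.91% of all genes were. Dcn, Pdgfra, Tcf21 and Dpt did not pass in either genotype. The summed level of the list was 1913 to 2508 CPM in KO TAC against 1381 to 1556 in KO sham. It was 3481 and 4510 CPM in WT TAC against 1470 to 1829 in WT sham. Between genotypes after TAC, 5 fibroblast markers were lower in KO TAC than in WT TAC, where 1.11% of all genes were. The list's median log2 difference was −0.80, and −0.58 without the library labelled WT TAC 1. Of 10 macrophage markers, 7 rose in KO and 6 in WT. Without that library the WT median log2 changes were 1.03 for fibroblast markers (1.24 with it) and 0.31 for macrophage markers (0.53). Of 10 endothelial markers, Pecam1 and Cldn5 rose in KO. Of 12 cardiomyocyte markers, Ryr2 fell in both genotypes and Csrp3 rose in WT, neither call in WT holding without that library, and their sums overlapped between groups. Of the 8 smooth muscle and pericyte markers, none at 0, Abcc9 fell in both genotypes. The list had a median log2 change of 0.30 after TAC in KO and −0.36 between KO sham and WT sham, beside the changes of Ndufa4l2 and Cox4i2 in the same comparisons. Other lists had medians of the same signs there, at 0.18 and −0.23 for endothelial, 0.56 and −0.31 for macrophage and 0.63 and −0.21 for fibroblast markers. The summed level of the smooth muscle and pericyte list, led by Rgs5, overlapped between groups (1774 to 2216 CPM in KO TAC, 2013 to 2170 in KO sham, 1709 and 2181 in WT TAC, 1937 to 2053 in WT sham). The part of these cell types in the members' values was not tested.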

How the data were processed

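Polyadenylated RNA of 14 mouse hearts was sequenced as strand-specific libraries, per the labels' protocols. For every library the authors deposited an unnormalised count of reads for each gene; per the file headers, coding, untranslated and ambiguous counts have columns of their own. STAR 2.4.2a, Picard 2.10.3, bcl2fastq 2.17.1.14 and the builds mm10 and GRCm38 are named, without roles, in the submitters' processing notes. Which annotation and strand setting the counting used is not given in the sources used here. Of 51912 identifiers, 51719 were found in GENCODE M21, which gave symbols, positions and lengths. Reads in no feature (10.7% to 19.0%) and ambiguous reads (1.43% to 1.59%) stayed out of library sizes and tests.

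Genes passed filterByExpr (minimum count 10), which left 15651 genes with all 78 members among them. Counts were scaled by TMM and tested in 1 fit of 4 group coefficients with the edgeR 4.0.16 quasi-likelihood test (R 4.3.3), with Benjamini-Hochberg adjustment over all 15651 genes and a threshold of 0.05. The biological coefficient of variation was 11.8%. The script was tested on simulated data. DESeq2 1.42.0, limma-voom (limma 3.58.1), other scalings, no filter, coding counts, 10-week libraries alone, only the groups compared and each library left out were alternatives. Adding ambiguous counts and leaving out library pairs were chosen after seeing the data. Replicate numbers only name libraries, in accession order. Every pair of libraries within a group differed by more than sampling noise (lowest chi-square per degree of freedom 3.29). Depth limits precision only for members of low count.

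The members and all gene lists were chosen with earlier results of these data known, so no test over a list is given. The values of 1 member are not reported here. In each comparison, the named members were those past the threshold and the 3 of smallest p that did not pass, with the 3 of smallest interaction p, the 2 highest and 1 lowest per complex by CPM per kb, and the paralogs. Range ends, called pathway and marker genes, and Cox6b2 as a changed gene, were named after their values were seen.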

Additional observations from a re-analysis of the deposited data

Results flagged for a closer look

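In groups of 4 libraries, a library was marked as standing apart where its gap to the nearest of the others was above Dixon's 95% critical value. Of 105 such groups of values (35 quantities), 9 were marked. Chance marks about 1 in 20 of independent values, but members move together between libraries and the sums hold the same members. The count of 9 therefore cannot be judged against that rate. In WT sham, WT sham 1 was the high library for Ndufab1 (312 CPM, against 244 to 253 in the others), Ndufv1 (889 against 801 to 813), Cox6a2 (669 against 502 to 520) and Cox6b1 (516 against 395 to 415). In KO TAC, KO TAC 1 was high for Cox8b (313 CPM, against 256 to 262). In KO sham, KO sham 4 was high for Ndufab1 (283 CPM, against 269 to 271) and for Cox7a1 (362 against 347.8 to 348.1) and low for Uqcrfs1 (848 against 881 to 888), and KO sham 2 was low for Ndufv1 (848.0 against 875 to 880.0). The KO sham differences are small in size, since the other libraries of that group nearly coincide.

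Outside the members, the pseudogene Cox6c2 averaged 1.02 CPM in KO TAC and 0.602 CPM in WT TAC with no overlap, although WT sham reached 1.80 CPM and Cox6c2 can take reads from its close relative Cox6c.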

How the results depend on the processing

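The named log2 changes past the threshold, those of smallest p and those of the called pathway genes (32 gene and comparison pairs) kept their sign in each alternative fitted. For KO TAC against KO sham, 1 member was called higher and 2 lower. The counts were 1 and 1 with total-count scaling, where 1034 and 855 of 15651 genes were called. They were also 1 and 1 with no filter (1159 and 1020 of 29798 genes) and with ambiguous counts added (1077 and 984 of 16348). They were 2 and 2 with DESeq2 (1244 and 1127 of 15651 genes) and without WT sham 1 and 2 together (1054 and 1022 of 15542). With only the groups compared they were 2 and 4, where 1335 and 1437 of 14637 genes were called. With the 10-week libraries alone they were 0 and 0. In that fit only 10 and 5 of all 15391 genes were called, against 1053 and 980 in the main fit. With coding counts they were 0 and 0, where 545 and 460 of 12793 genes were called. Without KO TAC 1 and WT sham 1 together they were 0 and 3, where 783 and 726 of 15614 genes were called. Over the fits that left out 1 library each, the higher count ran from 0 to 2 and the lower count from 0 to 2. Both were 2 without WT sham 1, where 1172 and 1105 of 15602 genes were called. Both were 0 without KO sham 2, where 431 and 366 of 15616 were. Ndufs1 passed in 20 of 26 alternatives, Cox6a1 in 15 and Ndufb2 in 11. For WT TAC against WT sham, 1 member was lower with total-count scaling, where 993 of 15651 genes were. With a library left out, 0 to 1 were lower, the 1 being without WT sham 4, where 838 of 15590 genes were. Between genotypes in sham hearts, 3 members (Ndufb4, Atp5c1 and Atp5j2) were higher without KO TAC 1 and WT sham 1 together, where 260 of 15614 genes were. With a library left out, 0 to 1 were higher and 0 to 1 lower. Both were 1 without WT sham 1, where 302 and 229 of 15602 genes were called. The interaction median was −0.12 without KO TAC 1 and WT sham 1 together. The cause of these shifts was not tested. Log2 paralog ratios on coding length were 6.27 for Cox4i1 over Cox4i2 (exon length 5.58), 3.27 for Cox6a2 over Cox6a1 (3.04), 0.0034 for Cox7a1 over Cox7a2 (0.98), −2.59 for Cox7a2l over Cox7a2 (−1.13), 1.52 for Cox8b over Cox8a (2.01), 5.89 for Ndufa4 over Ndufa4l2 (4.64), 3.38 for Atp5g1 over Atp5g2 (1.77) and 0.61 for Atp5g3 over Atp5g1 (1.79). No paired analysis was possible because replicate numbers follow the order of deposit. WT TAC holds 2 libraries, and when 1 is left out the other is assumed to vary like the other groups.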

Other observations

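Ndufb1-ps carries a symbol of the Ndufb series but is annotated as a non-coding RNA, so it was no member. It was expressed at the level of many members, with a mean count of 2183. It stood at 156, 138, 138 and 147 CPM in KO TAC and 147, 150, 153 and 151 CPM in KO sham, and at 148 and 135 CPM in WT TAC and 191, 124, 147 and 118 CPM in WT sham. WT sham 1 was high and WT sham 2 and 4 were low for this gene too.

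The log2 ratio of Cox8b to Cox8a, on exon-length levels, was 1.98 ± 0.21 in KO TAC and 2.11 ± 0.02 in KO sham (SD, n = 4 each), and 1.78 and 1.80 in the 2 WT TAC libraries, against 1.90 to 2.23 in WT sham. The log2 ratio of Cox7a1 to Cox7a2 was 1.01 ± 0.09 in KO TAC and 0.96 ± 0.04 in KO sham, and at 0.87 ± 0.07 in WT TAC and 1.01 ± 0.09 in WT sham. These ratios were not tested.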
